A study of Mus musculus with 5 samples.

Results

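The genes described here are known targets of progesterone, of glucocorticoids or of both in the mouse uterus, 10 of the 28666 genes in the deposited count table. They were picked by symbol as uterine progesterone targets (Acod1, Lrp2, Gata2, Sox17) and as genes shared with or belonging to corticoid signalling (Klf9, Zbtb16, Fkbp5, Sgk1, Tsc22d3, Hsd11b2), not by a measured value, and all 10 passed the filter on low counts. The uteri came from ICR females of 6 to 8 weeks, taken 3.5 days after caging (the study's methods give an earlier day) with a vasectomized C57BL/6 male, so that they were pseudopregnant and had received seminal plasma (SP) without sperm. The aged-SP group (2 libraries, replicates 1 and 4) had been caged with males in the second year of life and the young-SP group (3 libraries, replicates 1, 2 and 4) with young adult males. The paper reports that a further young-SP sample was excluded as an outlier in hierarchical clustering. The spread within the young-SP group is therefore that of the libraries kept. No unmated group was analysed here, and neither hormone levels nor the cell types within the uterus were measured, so that the comparison is one of whole organs between males of different age.

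Progesterone acts on the uterus through its nuclear receptor PGR, which prepares epithelium and stroma to receive an embryo before implantation. The glucocorticoid and mineralocorticoid receptors belong to the same receptor family and bind the same kind of DNA element, an inverted pair of short repeats, and for this reason many genes respond to more than one of these steroids. The response is set by the receptors, by chaperones that hold them ready to bind hormone, and by enzymes that destroy or renew the hormone inside the cell.

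Total counts lay between 15071914 and 16728601 per library. Young-SP replicate 1 stood apart from its group: on the first principal component of the 500 most variable genes it lay at -9.43, whereas the other young-SP libraries lay at 36.6 and 41.9 and the aged-SP libraries at -25.5 and -43.7, and results are given with and without it where this changed a call. The libraries held the defining genes of uterine epithelium, stroma and myometrium, while 4 of 6 genes of vagina and cervix and 3 of 4 genes of adipose tissue stayed under 1 CPM (counts scaled to library totals with TMM factors) in every library. In bulk tissue, fewer cells of a type and less RNA per cell cannot be told apart.

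The quasi-likelihood test of edgeR (two-sided) called 0 of the 10 genes, where a call required a log2 fold change beyond 1 in size and a Benjamini-Hochberg adjusted p below 0.05, a rule that 0.147% of all tested genes met. Adjusted p-values of the 10 lay between 0.0734 and 0.835. An unadjusted p under 0.05 was reached by 5 of the 10 and by 19.0% of all tested genes. Of these, 4 were lower in the aged-SP group (Lrp2, Sox17, Gata2 and Hsd11b2), where 9.36% of tested genes were, and 1 was higher (Klf9), where 9.62% were. The groups did not overlap in the same 5 genes, and they did not overlap in 38.8% of all tested genes. DESeq2's Wald test called 1 of the 10, Lrp2, by the same thresholds (3.60% of genes with an adjusted p in DESeq2), and gave 4 an adjusted p under 0.05 (Lrp2, Sox17, Gata2 and Klf9), a level that 7.58% of genes reached. Limma-voom called 0 of them. Without young-SP replicate 1, edgeR called 2 of the 10, Lrp2 and Sox17, and 3.45% of all genes tested in that fit. The median log2 fold change of the 10 genes was -0.10, beside 0.01 over all tested genes.

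**Figure D1:**
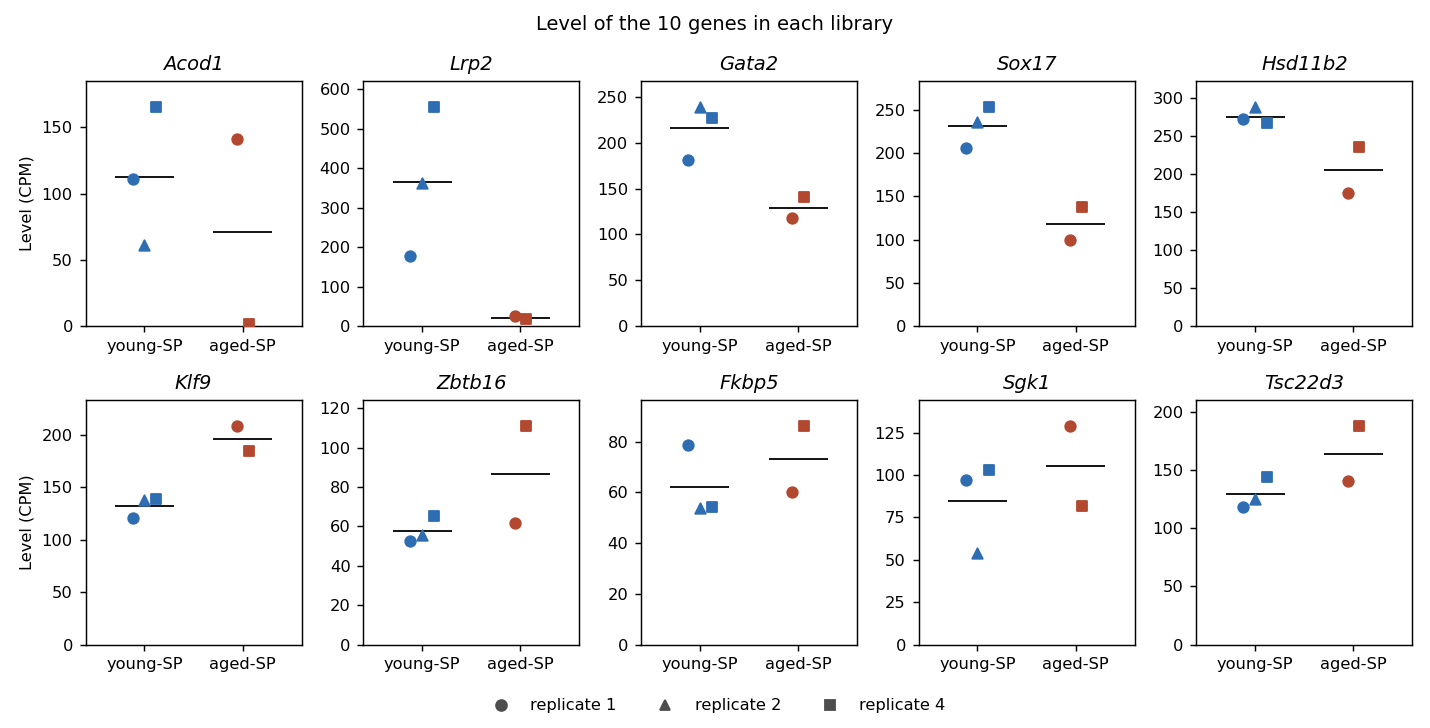
Level of each of the 10 genes in CPM (vertical axis, from 0) in the 3 young-SP and 2 aged-SP libraries. Each point is a library, its shape gives the replicate number and the line is the group mean. Lrp2, Sox17, Gata2 and Hsd11b2 lie lower and Klf9 lies higher in the aged-SP libraries than in any young-SP library, and the other 5 genes overlap.

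The largest difference was in Lrp2, which encodes megalin, a very large endocytic receptor of absorptive epithelia that takes up steroid and vitamin carrier proteins from fluid. The gene lies on chromosome 2 (69424340 to 69586065, minus strand, GRCm38). Its level was 24.8 and 17.3 CPM in aged-SP replicates 1 and 4, and 176, 362 and 554 CPM in young-SP replicates 1, 2 and 4. Both aged-SP libraries were thus far below the lowest young-SP library, which was the one that stood apart, and the young-SP libraries themselves differed by up to 3.14-fold. The mean of 21.0 ± 5.32 CPM (SD, n = 2) was 17.3-fold below that of the young-SP group, 364 ± 189 CPM (SD, n = 3). The log2 fold change was -4.11 (standard error, SE, 0.57), and the adjusted p was 0.0734 in edgeR and 1.50e-17 in DESeq2. In edgeR this was the 112th smallest p of 17013 and the 33rd lowest log2 fold change. Without young-SP replicate 1 the log2 fold change was -4.46 (edgeR adjusted p = 0.0105), and over all fits with a library left out it lay between -4.46 and -3.68.

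The change in Lrp2 was set beside genes of the same uptake route and beside the epithelium that expresses it. Lrpap1, the chaperone that keeps receptors of this family from binding their ligands too early, was at 127 and 141 CPM in the aged-SP libraries and between 199.8 and 235 CPM in the young-SP libraries (log2 fold change -0.68, SE 0.11, edgeR adjusted p = 0.0768). Clu, the secreted chaperone clusterin and a ligand of megalin, went the other way, at 1044 and 1654 CPM against 654, 86.0 and 139 CPM in young-SP replicates 1, 2 and 4, with a log2 fold change of 2.2 and an edgeR adjusted p of 0.261. Dab2, an adaptor that links megalin to the clathrin coat, had a log2 fold change of -0.17 (edgeR adjusted p = 0.446). Of the 7 listed partners 5 were tested, and edgeR and DESeq2 called 0. An unadjusted p under 0.05 in edgeR was reached by 2 of them, beside 19.0% of all tested genes. Without young-SP replicate 1, edgeR called 1, and 3.45% of all genes tested in that fit. The summed level of 11 epithelial markers was 1718 and 1870 CPM in the aged-SP libraries, inside the young-SP range of 1086 to 2191 CPM. Its members differed: Cldn3, an epithelial tight junction gene, was lower with Lrp2, at 91.5 and 96.1 CPM against 179 to 208 CPM (log2 fold change -1.03, SE 0.10, adjusted p 0.0552 in edgeR and 8.01e-12 in DESeq2), Krt18 was higher without overlap, and the other 9 overlapped between the groups. The sum of 6 gland markers was 2949 and 4106 CPM in the aged-SP group and 47.3 to 525 CPM in the young-SP group, most of it from Prss28 and Prss29, proteases secreted by the glands. Without that pair the sums overlapped (201 and 48.1 CPM against 35.4 to 54.2 CPM), but the remaining markers differed in direction. Spink1 was higher without overlap, at 153 and 12.2 CPM against 7.74 to 11.1 CPM. Sox9 was also higher without overlap, at 34.3 and 22.0 CPM against 7.94 to 21.3 CPM. Foxa2, the transcription factor that defines the glands, overlapped. Cxcl15, a chemokine, was lower at 2.90 and 1.92 CPM against 8.14 to 20.2 CPM (log2 fold change -2.35, edgeR adjusted p = 0.116). The part of epithelial or gland content in the Lrp2 difference was not tested.

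The transcription factors Gata2 and Sox17 were also lower in both aged-SP libraries. GATA2 is needed for Pgr expression in the uterus, and SOX17 acts with PGR and GATA2 in the epithelium, where it drives the hedgehog ligand Ihh, and it is also expressed in arterial endothelium. Sox17, on chromosome 1 (4490931 to 4497354, minus strand), was at 99.6 and 137 CPM in the aged-SP libraries and at 206, 236 and 253 CPM in the young-SP libraries. No aged-SP value reached the lowest young-SP value, and the mean was 1.95-fold lower. The log2 fold change was -0.97 (SE 0.18), and the adjusted p was 0.0877 in edgeR and 8.12e-05 in DESeq2, and without young-SP replicate 1 it was -1.06 (edgeR adjusted p = 0.0427). Exons of Gm37587 on the opposite strand cover 16.8% of the exonic bases of Sox17, and the library kit is not stated to keep strand, so that reads of this stretch cannot be assigned. The summed level of 8 endothelial markers was 646 and 677 CPM in the aged-SP group, inside the young-SP range of 526 to 848 CPM. Of the 8, only Emcn did not overlap between the groups, and it was lower, at 46.5 and 45.9 CPM against 50.5 to 64.8 CPM. The part of endothelial or epithelial content in the Sox17 difference was not tested.

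Gata2, on chromosome 6 (88193891 to 88207032, plus strand), was at 118 and 141 CPM in the aged-SP libraries and at 182, 239 and 227 CPM in young-SP replicates 1, 2 and 4. The groups did not overlap, and young-SP replicate 1 was the young-SP library closest to the aged-SP group, as it was for Lrp2 and Sox17. The mean was 1.67-fold lower, with a log2 fold change of -0.74 (SE 0.16), an edgeR adjusted p of 0.110 and 0.00204 in DESeq2. Without young-SP replicate 1 the adjusted p in edgeR was 0.0337 at a log2 fold change of -0.86, which is under the size that a call required. The summed level of 8 stromal markers was also lower in the aged-SP group, at 5955 and 7234 CPM against 7980 to 10383 CPM. The gap came from Col1a1, the collagen gene, since without it the sums overlapped, at 3543 and 4366 CPM against 3598 to 5151 CPM. Of the 8, Col1a1, Pdgfra, Hand2 and Hoxa11 were lower and Pdgfrb higher without overlap, and Hoxa10, Dcn and Vim overlapped. The part of stromal content in the Gata2 difference was not tested.

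In Acod1, unlike Lrp2, Gata2 and Sox17, a single library decided the value. It encodes the enzyme that makes itaconate, and it is known both as a progesterone-induced gene of the luminal epithelium around implantation and as a gene of activated macrophages. The gene lies on chromosome 14 (103046977 to 103056573, plus strand). Aged-SP replicate 4 had 27 counts (1.73 CPM), whereas aged-SP replicate 1 had 2331 counts (141 CPM) and young-SP replicates 1, 2 and 4 had 1776, 1036 and 2474 counts (111, 61.2 and 165 CPM). Aged-SP replicate 1 lay inside the young-SP range, and the 2 aged-SP libraries differed by 81.6-fold, the largest spread within a group among the 10 genes. The log2 fold change of -0.66 had an SE of 1.39 (edgeR adjusted p = 0.835), was -6.02 without aged-SP replicate 1 and turned to 0.33 without aged-SP replicate 4. Macrophage and monocyte markers (9 genes) summed to 1172 and 915 CPM in aged-SP replicates 1 and 4 and to 474 to 1062 CPM in the young-SP group. Cd14 alone gave 676 CPM of the sum in aged-SP replicate 1, and without it the sums were 496 and 775 CPM against 404 to 811 CPM. Neutrophil markers (7 genes) summed to 110.0 and 31.9 CPM in aged-SP replicates 1 and 4 and to 38.4 to 252 CPM in the young-SP group. The part of these cells in the Acod1 values was not tested.

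Hsd11b2 encodes the enzyme that inactivates corticosterone and so keeps glucocorticoid from its receptors in the cells that express it. It lies on chromosome 8 (105518755 to 105523988, plus strand). The level was 175 and 235 CPM in aged-SP replicates 1 and 4 and 272, 288 and 267 CPM in young-SP replicates 1, 2 and 4. The young-SP libraries lay close together, within 1.08-fold, and both aged-SP libraries were below them, although aged-SP replicate 4 was nearer to them than to aged-SP replicate 1. The aged-SP mean was 205 ± 42.5 CPM (SD, n = 2) beside 275 ± 10.9 CPM (SD, n = 3), with a log2 fold change of -0.42 (SE 0.15) and an edgeR adjusted p of 0.217 and 0.107 in DESeq2.

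Klf9 was the 1 gene of the 10 whose aged-SP values both exceeded all young-SP values. It encodes a zinc finger factor that is induced by glucocorticoids and that works with PGR in the endometrium. The gene lies on chromosome 19 (23141226 to 23166911, plus strand, as the table gives it). The aged-SP libraries had 209 and 184 CPM and the young-SP libraries 120.5, 138 and 139 CPM. Both groups were tight, with at most 1.15-fold between libraries of a group, and the means were 1.48-fold apart. The log2 fold change was 0.57 (SE 0.11), and the adjusted p was 0.0957 in edgeR and 0.00326 in DESeq2, and without young-SP replicate 1 it was 0.49 (edgeR adjusted p = 0.0814).

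**Figure D2:**
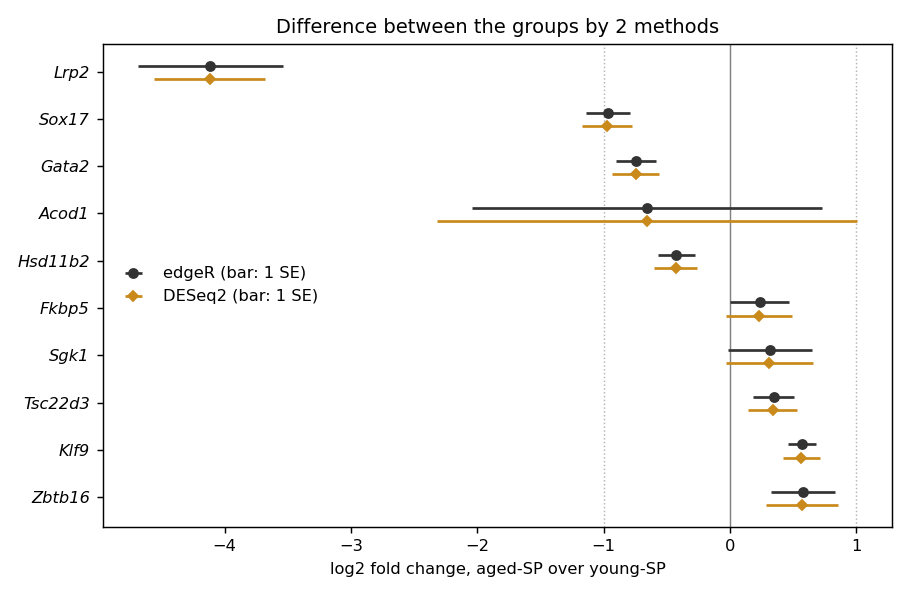
Log2 fold change, aged-SP over young-SP (horizontal axis), for each of the 10 genes, by edgeR (circles) and DESeq2 (diamonds), with bars of 1 SE (standard error) and dotted lines at -1 and 1. Both methods place Lrp2 near -4.1 and the other genes between -1 and 1, and the bars of Acod1, Fkbp5 and Sgk1 cross 0.

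The remaining genes are classical corticoid-induced genes that progesterone can also induce, and in each of them the groups overlapped. Zbtb16 encodes PLZF, a transcription repressor induced by both hormones in the endometrium. Its level was 61.8 and 111 CPM in aged-SP replicates 1 and 4 and 52.8 to 65.2 CPM in the young-SP libraries, so that aged-SP replicate 4 alone stood out, and the log2 fold change of 0.58 (SE 0.26, edgeR adjusted p = 0.302) was 0.09 without it. Tsc22d3 encodes GILZ, a leucine zipper protein that mediates anti-inflammatory effects of glucocorticoids, and aged-SP replicate 4 was again highest. It stood at 141 and 188 CPM in the aged-SP libraries and at 119, 125 and 145 CPM in the young-SP libraries, with a log2 fold change of 0.35 (SE 0.16, edgeR adjusted p = 0.317) and of 0.12 without aged-SP replicate 4.

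Fkbp5 encodes FKBP51, a co-chaperone that lowers the hormone affinity of the glucocorticoid and progesterone receptors and is itself induced by both hormones as a feedback brake. It was at 60.3 and 86.3 CPM in aged-SP replicates 1 and 4 and at 78.7, 54.0 and 54.2 CPM in young-SP replicates 1, 2 and 4. The 2 highest values belonged to 1 library of each group, and the log2 fold change was 0.23 (SE 0.24, edgeR adjusted p = 0.627). Sgk1 encodes a kinase that raises epithelial sodium channel activity and is induced by mineralocorticoid, glucocorticoid and progesterone. It was at 129 and 81.4 CPM in aged-SP replicates 1 and 4 and at 96.8, 53.9 and 103 CPM in young-SP replicates 1, 2 and 4. Aged-SP replicate 4 lay between the young-SP libraries, and the log2 fold change was 0.32 (SE 0.33, edgeR adjusted p = 0.645). The direction of Fkbp5 and of Sgk1 turned when aged-SP replicate 4 (-0.05) or aged-SP replicate 1 (-0.06), respectively, was left out.

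Zbtb16 lies on chromosome 9 (48654297 to 48836222), Tsc22d3 on chromosome X (140539528 to 140600659), Fkbp5 on chromosome 17 (28399095 to 28517524) and Sgk1 on chromosome 10 (21882184 to 21999903), with Sgk1 on the plus strand and the others on the minus strand. The positions of Klf9 and Fkbp5 in the table differ from those of the GENCODE M21 annotation, which was used for the shared stretches. Among these 4 genes the share of 50-base stretches of the transcripts that also occur in other genes was at most 0.684%. For Acod1, Lrp2, Gata2, Klf9 and Hsd11b2 this share was 0, and for Sox17 it was 14.99%.

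**Figure D3:**
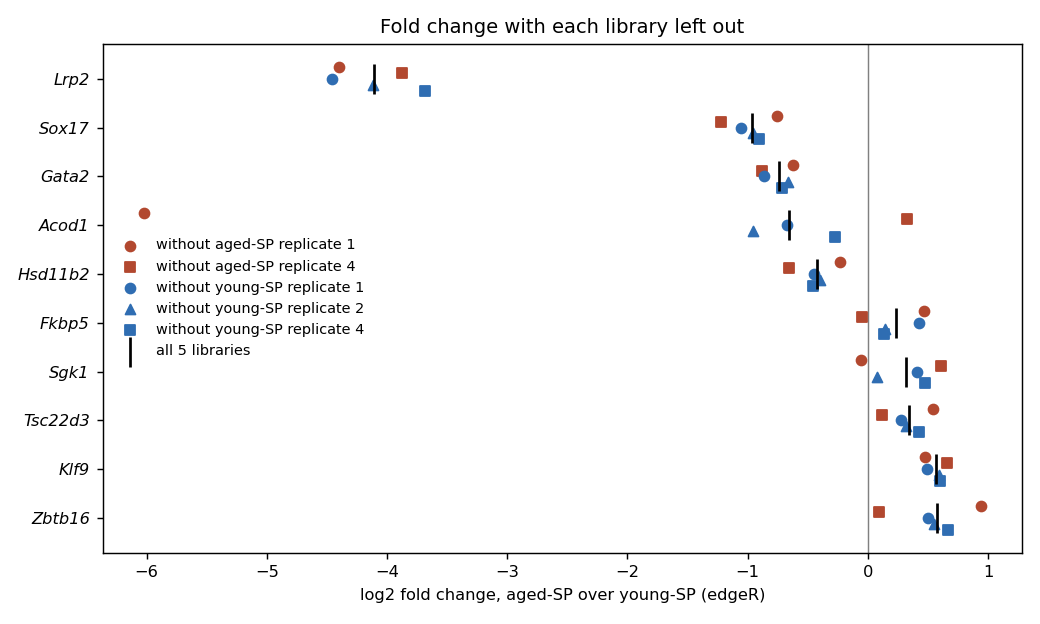
Log2 fold change from edgeR (horizontal axis) for each of the 10 genes with each of the 5 libraries left out in turn (points, colour by group and shape by replicate) and with all 5 libraries (bars). Lrp2 stays between -4.46 and -3.68, whereas Acod1 moves from -6.02 to 0.33 and Fkbp5 and Sgk1 cross 0.

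Of the 10 genes, 7 had a promoter window in RefSeq (GRCm38.p6; 250 bases before to 50 bases after an annotated start site), with 15 windows in all. Receptors of this family bind a hexamer, AGAACA or its reverse complement TGTTCT, and in its full form an inverted pair of hexamers with a spacer of 3 bases, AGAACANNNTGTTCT. Both strands were searched, and the hexamers of a full element overlap it. The full element was in 3 of 32851 windows of all genes (0.00913%), and 1 of these windows was that of an internal start site of Sgk1, at chr10:21993640-21993939, with the element at 21993701 to 21993715 and its first base 189 bases before the start site. The other windows belonged to Acnat2 and Gm35041. A hexamer was in 4 of the 15 windows (3 of Sgk1 and 1 of Tsc22d3), beside 19.0% of all windows. The windows of Acod1, Lrp2, Gata2, Klf9 and Fkbp5 held neither motif. A match describes the letters of the window, and no binding was measured. Only these exact letters were searched, and only in these windows. A window without a match therefore does not show that the gene lacks a response element. Shown are the stretches before the start site and outside annotated exons of Sgk1 (chr10:21993640-21993889, plus strand), which holds the full element, of Tsc22d3 (chrX:140600660-140600772, minus strand), which holds a single hexamer, and of Lrp2 (chr2:69586066-69586279, minus strand), the gene with the largest difference, which holds none. Each is written 5′ to 3′ with hexamers and the full element in capitals.
Sgk1: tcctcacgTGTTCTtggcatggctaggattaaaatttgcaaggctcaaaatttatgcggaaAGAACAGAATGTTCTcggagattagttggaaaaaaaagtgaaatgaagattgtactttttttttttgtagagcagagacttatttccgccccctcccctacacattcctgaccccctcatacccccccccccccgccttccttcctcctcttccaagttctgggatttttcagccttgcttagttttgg
Tsc22d3: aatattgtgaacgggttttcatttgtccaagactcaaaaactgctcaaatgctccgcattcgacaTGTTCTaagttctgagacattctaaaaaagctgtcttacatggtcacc
Lrp2: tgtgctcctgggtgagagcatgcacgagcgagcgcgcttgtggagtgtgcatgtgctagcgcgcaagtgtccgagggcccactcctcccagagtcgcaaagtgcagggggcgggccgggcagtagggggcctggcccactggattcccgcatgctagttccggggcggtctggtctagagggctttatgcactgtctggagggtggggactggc
The Lrp2 stretch is rich in G and C (65.9% of 214 bases, against 44.8% of 250 bases in Sgk1). Sox17, Zbtb16 and Hsd11b2 had no window, and a link between motifs and the differences between the groups was not tested.

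Levels can be compared between genes only per length, for which the deposited FPKM (fragments scaled to gene length and to library total) were used. Hsd11b2 was the most abundant of the 10 in each of the 5 libraries, with young-SP libraries at 150.1 ± 8.37 FPKM (SD, n = 3) and aged-SP libraries at 111 ± 23.6 FPKM (SD, n = 2), and its lowest library (94.1 FPKM) was above every value of the other genes. In the order of the young-SP means, Sox17 (48.7 ± 5.23), Acod1 (42.8 ± 19.4), Klf9 (40.7 ± 3.53), Gata2 (40.1 ± 6.07) and Tsc22d3 (29.9 ± 3.01) followed, then Lrp2 (21.9 ± 11.2), Sgk1 (17.2 ± 5.24), Zbtb16 (10.98 ± 1.19) and Fkbp5 (9.80 ± 2.14), each in FPKM with SD (n = 3). Apart from Hsd11b2, each gene overlapped its neighbours in this order over the 5 libraries. The places of some genes differed between libraries: Klf9 was in place 2 in both aged-SP libraries and in place 4 in the young-SP libraries, Lrp2 was 10th and 9th in aged-SP replicates 1 and 4 and 9th, 7th and 7th in young-SP replicates 1, 2 and 4, and Acod1 was 10th in aged-SP replicate 4 and 3rd in aged-SP replicate 1.

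**Figure D4:**
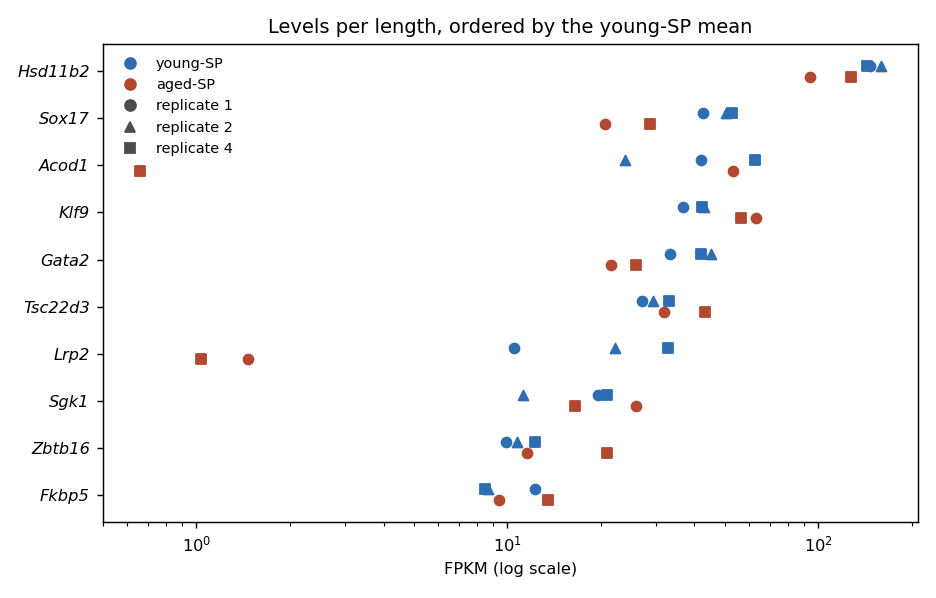
Level per length in FPKM (horizontal axis, log scale) of each of the 10 genes in the 5 libraries, ordered by the young-SP mean from the top. Hsd11b2 lies above all other genes in every library, Lrp2 is near 1 FPKM in both aged-SP libraries, and Acod1 is at 0.657 FPKM in aged-SP replicate 4 alone.

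Among the receptors through which these genes respond, Pgr was at 200.04 and 204 CPM in the aged-SP libraries and at 288, 248 and 222 CPM in the young-SP libraries, which is lower without overlap but by a log2 fold change of only -0.32 (SE 0.13, edgeR adjusted p = 0.270). The glucocorticoid receptor gene Nr3c1 was at 87.3 and 88.5 CPM, inside the young-SP range of 74.6 to 103 CPM (log2 fold change -0.05, edgeR adjusted p = 0.885). The mineralocorticoid receptor gene Nr3c2 was higher in both aged-SP libraries, at 8.34 and 9.15 CPM against 4.82 to 5.41 CPM, with a log2 fold change of 0.77 (SE 0.18, edgeR adjusted p = 0.122). Over 17 genes of receptors, chaperones and coregulators, edgeR and DESeq2 called 0. An unadjusted p under 0.05 in edgeR was reached by 3 of them, beside 19.0% of all tested genes. Nr3c2 and Esr1, the estrogen receptor gene (log2 fold change 0.28, edgeR adjusted p = 0.229), were higher. Stip1, a co-chaperone that hands receptors to HSP90, was lower (log2 fold change -0.29, edgeR adjusted p = 0.213). The median log2 fold change of these 17 genes was -0.05.

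Other progesterone targets of the uterus differed in both directions. Of 16 listed genes, edgeR called 0, while 10 had an unadjusted p under 0.05, 8 of them lower and 2 higher, and DESeq2 called 5, all lower (Ihh, Ptch1, Areg, Calca and Il13ra2). Over all genes the shares were 19.0% at this unadjusted p, 9.36% lower and 9.62% higher, and 3.60% called by DESeq2. The 2 higher genes were Cyp26a1 and Wnt4, and in both the groups overlapped and 1 aged-SP library stood out. Cyp26a1 was at 104 CPM in aged-SP replicate 1 and 2.30 CPM in aged-SP replicate 4, against 2.36 to 3.40 CPM. Wnt4 was at 9.79 CPM in aged-SP replicate 1 and 27.8 CPM in aged-SP replicate 4, against 4.21 to 10.5 CPM. The median log2 fold change of the 16 genes was -0.28. Without young-SP replicate 1, edgeR called 5, and 3.45% of all genes tested in that fit. Calca, the calcitonin gene of the receptive epithelium, was at 0.302 and 0.512 CPM in the aged-SP libraries and at 1.88 to 3.67 CPM in the young-SP libraries (log2 fold change -2.74, SE 0.48, edgeR adjusted p = 0.0830). Ihh, the epithelial hedgehog signal to the stroma, was at 7.98 and 11.5 CPM against 20.8 to 45.3 CPM (log2 fold change -1.78, SE 0.38, edgeR adjusted p = 0.109). Il13ra2, a decoy receptor for interleukin 13, was at 14.3 and 5.31 CPM against 25.5 to 67.6 CPM (log2 fold change -2.18, SE 0.59, edgeR adjusted p = 0.153). In all 3 genes the aged-SP libraries lay below every young-SP library. These 3 were named for their small p, which favours genes with separate groups, so that their likeness to Lrp2, Sox17 and Gata2 is no independent finding. Full separation, in either direction, was seen in 10 of the 16 listed genes, beside 38.8% of all tested genes. Errfi1 and Foxo1 were separated in the opposite direction, with the aged-SP libraries above every young-SP library.

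Among 19 tested genes of a list of other glucocorticoid targets, edgeR called 0, 4 had an unadjusted p under 0.05, all of them higher, and DESeq2 called 2, both higher (Pdk4 and Cebpb). Over all genes, 19.0% reached this unadjusted p, with 9.62% higher, and DESeq2 called 3.60%. The median log2 fold change was 0.36, with 14 genes above 0 and 5 below. Over all tested genes, 8663 of 17013 were above 0. Aged-SP and young-SP values lay fully apart in 5 of the 19, all of them higher, beside 38.8% of all tested genes. Most of the 14 genes above 0 thus had values that overlapped between the groups. Pdk4, a kinase that turns cells from glucose to fatty acid use, was at 21.0 and 44.7 CPM in the aged-SP libraries and at 4.67 to 8.74 CPM in the young-SP libraries (log2 fold change 2.24, SE 0.40, edgeR adjusted p = 0.0867). Cebpb, a transcription factor of decidualization and inflammation, had a log2 fold change of 1.07 (edgeR adjusted p = 0.149), and Cdkn1a, the cell cycle inhibitor p21, one of 0.67 (edgeR adjusted p = 0.152). Per1, a glucocorticoid-induced clock gene, overlapped between the groups with a log2 fold change of 0.05 (edgeR adjusted p = 0.916). Per1 is named here although it lies outside the naming rule, and it was chosen after its values were seen.

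Genes of sodium transport, which lie downstream of the mineralocorticoid receptor and Sgk1, had a median log2 fold change of 0.08 over 9 tested genes. EdgeR and DESeq2 called 0 of them. Beside 19.0% of all tested genes (9.36% lower), 2 of the 9 had an unadjusted p under 0.05 in edgeR, both lower. These were Atp1b1, a subunit of the sodium pump, at 162 and 103 CPM against 191 to 308 CPM (log2 fold change -0.91, edgeR adjusted p = 0.184), and Scnn1a, a subunit of the epithelial sodium channel, with a log2 fold change of -0.57 (edgeR adjusted p = 0.250). Sgk3, a relative of Sgk1, had a log2 fold change of -0.37 (edgeR adjusted p = 0.280). Other subunits of the epithelial sodium channel went the other way. Scnn1b was higher without overlap (log2 fold change 0.77, edgeR adjusted p = 0.311). Scnn1g overlapped between the groups, with a log2 fold change of 1.42 (edgeR adjusted p = 0.635). Scnn1b and Scnn1g lie outside the naming rule and were chosen after their values were seen. Of the 9 tested genes, 5 had a log2 fold change above 0 and 4 below.

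**Figure D5:**
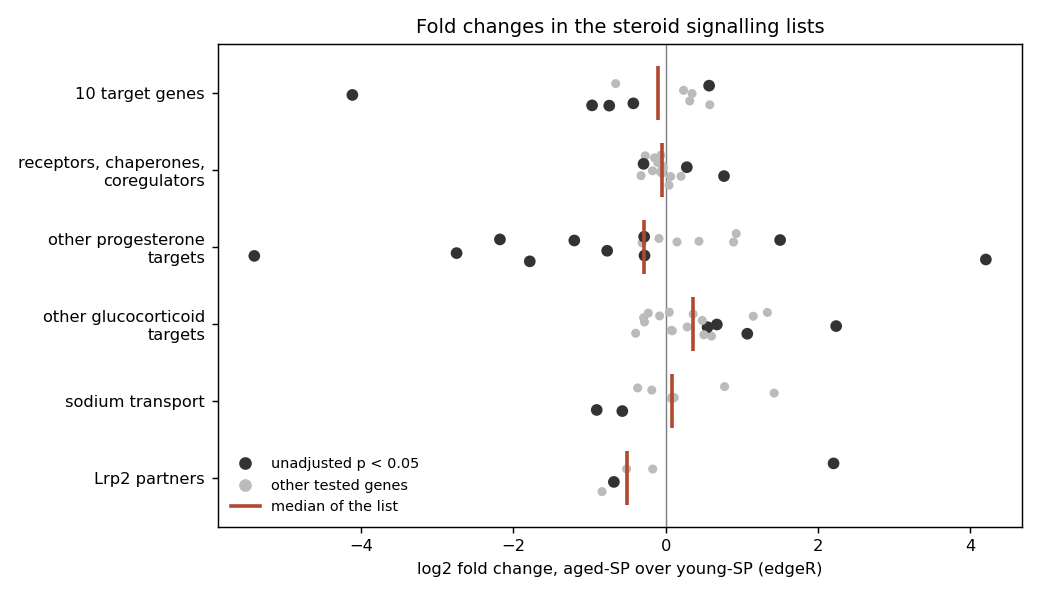
Log2 fold change, aged-SP over young-SP (horizontal axis), for the tested genes of each list, with dark points at an unadjusted p under 0.05 in edgeR, a red bar at the median of each list and a grey line at the median of all tested genes (0.01). The medians lie at -0.28 for other progesterone targets and at 0.36 for other glucocorticoid targets, and dark points lie on both sides of the grey line in the former and on its right in the latter.

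For Lrp2, Sox17 and Klf9, the members with the smallest p in edgeR, the genes with the most similar course over the 5 libraries were sought among 12118 other tested genes, as the smallest root mean square difference in centred log2 CPM. Lrp2 was closest to Ppfia2 (0.50) and Lamc3, a laminin chain (0.59). Sox17 was closest to Fn1, the fibronectin gene (0.04), which was at 1049 and 1372 CPM in the aged-SP libraries and at 2036 to 2490 CPM in the young-SP libraries, and to Tcaf2 (0.05). Klf9 was closest to Kidins220 (0.03) and Net1 (0.03). These values describe 5 libraries that include both groups. The measure is not scaled to the range of a gene, so that distances of the 3 members cannot be compared directly. The highest library was 32.1-fold above the lowest in Lrp2, 2.54-fold in Sox17 and 1.73-fold in Klf9.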

How the data were processed

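RNA of whole uteri was sequenced by the authors (Illumina HiSeq, NEBNext Ultra kit), filtered and aligned with HISAT2 2.1.0, and the submitters' processing notes also name HTSeq 0.6.0 and Bowtie2 2.2.3. The genome build is not given in the sources used here, and of the 10 genes, 8 have the same position in the table and in the GRCm38 annotation GENCODE M21 (all but Klf9 and Fkbp5). The authors deposited a table of raw counts per gene. Their deposited FPKM were found, from the values, to be the raw counts over the gene's length and the library's sum of counts. The table also holds the authors' own comparison (fold changes and p-values), which was not used. Columns were matched to samples by the headers of the per-sample files, and 0 columns of values per sample were left unused.

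Counts were analysed with edgeR 4.0.16 in R 4.3.3: filterByExpr with the groups (17013 genes kept), TMM (factors 0.990 to 1.02), glmQLFit and glmQLFTest, with Benjamini-Hochberg adjustment over all tested genes. Standard errors are the log2 fold change divided by the square root of F. Log2 CPM had a prior count of 2. DESeq2 1.42.0 with default settings on all genes and limma-voom (limma 3.58.1) were alternatives, with other scalings, filters, edgeR settings, a replicate block and each library left out. With 1 aged-SP library left, that library was assumed to vary like the others. The tests were checked on simulated counts with the same group sizes, in which a larger share of DESeq2's calls than of edgeR's or limma-voom's was false. These counts were drawn with dispersions estimated by edgeR, and DESeq2 was run on filtered genes. The check therefore does not rank the methods on the real counts, where DESeq2 was run on all genes. Each of the 10 library pairs was further apart than sampling noise (chi-square per degree of freedom at least 17.0). The labels do not say that libraries came from separate females, so that p-values measure the spread between these libraries, which may be technical. The members, the gene lists and the naming rule (the 3 genes of each list with the smallest p, and Pgr, Nr3c1 and Nr3c2) were chosen with earlier results of these data known. Mt2, of the glucocorticoid list, was not analysed here. Total counts lay between 15071914 and 16728601, close enough that depth was similar in all libraries.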

Additional observations from a re-analysis of the deposited data

How the results depend on the processing

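Over 13 alternatives, 7 of the 10 genes kept their direction in every one, and Acod1, Fkbp5 and Sgk1 turned in 1 each, when an aged-SP library was left out (Acod1 between -6.02 and 0.33, Fkbp5 between -0.047 and 0.47, Sgk1 between -0.057 and 0.61 on the log2 scale); the cause was not tested. EdgeR called 0 of the 10, against 1 with DESeq2, 1 with no filter on low counts (Lrp2, adjusted p = 0.0200) and 0 to 2 with a library left out, the 2 without young-SP replicate 1. Other progesterone targets went from 0 calls to 5 with DESeq2, 1 with no filter and 0 to 5 with a library left out (1 without aged-SP replicate 4 and 5 without young-SP replicate 1). Other glucocorticoid targets went from 0 to 2 with DESeq2, 1 with no filter and 0 to 1 with a library left out, partners of Lrp2 from 0 to 0 to 1 with a library left out, and close relatives from 0 to 1 with DESeq2 and 0 to 1 with a library left out, in each case 1 without young-SP replicate 1. Other scalings, limma-voom, edgeR with legacy = FALSE, at least 10 counts in every library and the adjusted p alone changed no call in these lists.

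With the replicate number as a block, which leaves 1 residual degree of freedom, edgeR called 0 of the 10 genes and the log2 fold change of Lrp2 was -3.91 (edgeR adjusted p = 0.174). The numbers are not stated to pair libraries: same-numbered libraries deviated from their group means with correlations of 0.15 (replicate 1) and 0.14 (replicate 4) over genes, and with 2 pairs this cannot show pairing. With 2 aged-SP libraries, the spread within that group rests on a single difference, and in Acod1 and Zbtb16, where they disagree, a difference between the groups was not detectable with these libraries.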

Other observations

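Close relatives of the 10 genes were listed as well. Of 22 relatives 17 were tested, edgeR called 0 of them, 5 had an unadjusted p under 0.05 in edgeR (4 higher and 1 lower), and DESeq2 called 1 (Hsd11b1). Over all genes, 19.0% reached this unadjusted p (9.62% higher and 9.36% lower), and DESeq2 called 3.60%. Hsd11b1 renews corticosterone and so opposes Hsd11b2. It was at 340.0 CPM in aged-SP replicate 1, at 7.61 CPM in aged-SP replicate 4 and at 9.44, 3.61 and 9.61 CPM in young-SP replicates 1, 2 and 4, so that its log2 fold change of 4.53 (edgeR adjusted p = 0.185) came from 1 library. Zbtb7a, a zinc finger relative of Zbtb16, had a log2 fold change of 0.27 (edgeR adjusted p = 0.213), and Fkbp1a, a small relative of Fkbp5, one of -0.26 (edgeR adjusted p = 0.224). Their median log2 fold change was 0.06.

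Summed markers of other tissues that lie next to the uterus were 72.2 and 80.3 CPM in the aged-SP libraries and 21.6 to 46.1 CPM in the young-SP libraries for 6 ovarian genes, and 108 and 149 CPM against 50.2 to 252 CPM for 4 genes of the oviduct. The sums of 7 myometrial markers were 8710 and 11107 CPM in the aged-SP group and 9105 to 13804 CPM in the young-SP group. Of the ovarian genes, Lhcgr, Zp3 and Cyp11a1 were under 1 CPM in every library. Akr1c18, an enzyme that breaks down progesterone, was at 32.1 and 5.12 CPM in aged-SP replicates 1 and 4. In the young-SP libraries Akr1c18 was at most at 0.188 CPM (chosen after its values were seen). Star gave the largest part of the ovarian sum except in aged-SP replicate 1, where Akr1c18 did. Star overlapped between the groups (log2 fold change 0.91, edgeR adjusted p = 0.346). Without Star the sums were 42.2 and 15.03 CPM against 5.20 to 8.48 CPM, mainly from Akr1c18 and Inhba. The part of ovarian tissue in these sums was not tested.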
